A study of Mus musculus with 8 samples.

Results

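The imprinted growth genes were examined in liver endothelial cells (liver ECs) of mice with and without endothelial LRP1, the low-density lipoprotein receptor-related protein 1. The set was chosen by gene symbol and held 10 of the 22520 protein-coding genes in the deposited table, namely Igf2, Igf2r, Dlk1, Peg3, Mest, Plagl1, Cdkn1c, Grb10, Ndn and Phlda2. Each symbol matched exactly 1 gene. LRP1 eKO mice carried LRP1 f/f and Cdh5-CreER+/-, in which the Cdh5 promoter drives an inducible Cre recombinase in ECs, and their WT littermates carried LRP1 f/f and Cdh5-CreER-/-. Both groups therefore had floxed Lrp1 alleles and only LRP1 eKO mice had CreER, so that an effect of CreER and an effect of losing Lrp1 cannot be told apart. The labels give strain C57BL/6 and postnatal day 14 for all mice, and the agent and time of Cre induction are not given in the sources used here. mRNA-seq was done on 4 libraries per group, of cells that the labels name liver microvesicular cells and that, per the methods, were selected with a PECAM-1 antibody. No label ties a library to an animal of its own, so p-values measure the spread between these libraries, which may be technical.

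In genomic imprinting a gene is transcribed from the maternal or the paternal allele only, as set by DNA methylation that was laid down in the germ line. Many imprinted genes act on growth of the fetus and young animal. Those expressed from the paternal allele tend to promote growth, those expressed from the maternal allele tend to restrain it, and transcripts of several of them decline in many organs after birth. The reads here were not assigned to alleles, so that all values are totals over both.

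The genes lie on 6 chromosomes of mm10, the build named in the submitters' processing notes, and positions are given from GENCODE M21 on the same assembly. Igf2 (chr7:142650766-142666816, minus strand), Cdkn1c (chr7:143458339-143461050, minus) and Phlda2 (chr7:143501545-143503150, minus) share an imprinted region of distal chromosome 7. Peg3 (chr7:6703892-6730431, minus) and Ndn (chr7:62346569-62350262, plus) lie elsewhere on that chromosome. The others are Mest (chr6:30723547-30748465, plus), Plagl1 (chr10:13060504-13131694, plus), Grb10 (chr11:11930508-12038683, minus), Dlk1 (chr12:109452823-109463336, plus) and Igf2r (chr17:12682406-12769664, minus). Exons of 3 of the genes overlap those of another gene by more than 20% of their length. Igf2 shares 62.8% of its exonic bases with Gm49394 on the same strand, Mest shares 23.1% with the antisense gene Copg2, and Cdkn1c shares 30.7% with the antisense gene Gm44732. Whether reads were counted by strand is not given in the sources used here, so the signals of these 3 genes are uncertain to that extent.

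RefSeq start sites on GRCm38.p6 were found for 9 of the genes, all but Cdkn1c, and gave 15 windows of 250 bases that end just before a start. They are shown for the 4 genes whose signals passed the test between genotypes, to let a reader see how unlike these promoters are. Capitals mark TGCCGC or its reverse complement GCGGCA, the hexamer bound by ZFP57, a zinc finger protein that keeps imprints in place when this hexamer is methylated. Mest is shown at its upstream start (chr6:30733256-30733505, plus strand, GRCm38.p6) and at its CpG-rich downstream start (chr6:30737800-30738049, plus), and Igf2 (chr7:142658805-142659054, minus), Dlk1 (chr12:109452573-109452822, plus) and Igf2r (chr17:12769707-12769956, minus) at the window with most CpG.
Mest, upstream start: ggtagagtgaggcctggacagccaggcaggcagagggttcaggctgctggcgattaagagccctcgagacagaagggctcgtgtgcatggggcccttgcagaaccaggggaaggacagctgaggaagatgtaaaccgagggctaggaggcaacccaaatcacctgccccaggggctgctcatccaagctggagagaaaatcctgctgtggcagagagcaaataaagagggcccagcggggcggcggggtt
Mest, downstream start: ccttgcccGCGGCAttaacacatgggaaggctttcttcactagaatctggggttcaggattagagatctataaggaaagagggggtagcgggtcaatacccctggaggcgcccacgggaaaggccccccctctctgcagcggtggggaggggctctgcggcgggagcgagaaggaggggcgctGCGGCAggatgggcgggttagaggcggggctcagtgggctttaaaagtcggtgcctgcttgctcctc
Igf2: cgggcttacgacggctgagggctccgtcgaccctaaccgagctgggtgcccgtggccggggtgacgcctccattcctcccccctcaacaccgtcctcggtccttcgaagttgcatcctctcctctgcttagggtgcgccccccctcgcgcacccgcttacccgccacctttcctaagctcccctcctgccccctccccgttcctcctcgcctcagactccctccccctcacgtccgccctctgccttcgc
Dlk1: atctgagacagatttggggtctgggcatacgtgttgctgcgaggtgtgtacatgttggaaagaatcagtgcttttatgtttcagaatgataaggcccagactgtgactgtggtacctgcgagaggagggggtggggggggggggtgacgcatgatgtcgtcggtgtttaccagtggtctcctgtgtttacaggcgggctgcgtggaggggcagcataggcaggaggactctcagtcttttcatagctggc
Igf2r: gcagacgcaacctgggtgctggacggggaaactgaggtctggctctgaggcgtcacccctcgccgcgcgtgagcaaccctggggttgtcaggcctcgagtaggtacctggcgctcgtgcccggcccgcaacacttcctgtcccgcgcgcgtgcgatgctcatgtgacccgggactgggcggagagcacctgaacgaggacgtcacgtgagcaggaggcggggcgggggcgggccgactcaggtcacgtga
Of all 32851 RefSeq windows of this length, 8.68% held the hexamer on either strand and 0.874% held it 2 or more times. The downstream Mest window held it 2 times, and a second Mest start 3 bases further on gave the same matches. Plagl1 (chr10:13090582-13090831) held it 1 time, and no window of Igf2, Dlk1, Igf2r, Peg3, Grb10, Ndn or Phlda2 held it. The number of CpG dinucleotides was 7 in the upstream and 14 in the downstream Mest window, 22 in the Igf2 window, 8 in the Dlk1 window and 27 in the Igf2r window, against a median of 6 over all windows. These counts describe letters near annotated starts, and no binding or methylation was measured. Sequence outside the windows was not searched, so lack of the hexamer in a window does not bear on a gene's imprint.

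The signal is quantile-normalized, and its unit before that step is not given in the sources used here. The sum over genes was between 484445 and 485947 in every library, so that depth is unknown. Lrp1 checked the genotype labels only, with signals between 56.2 and 85.1 in WT and between 2.16 and 6.01 in LRP1 eKO libraries (log2 fold change -3.66, limma adjusted p = 2.8e-06). Markers went against the cell label in part. The summed signal of 10 pan-endothelial markers was 41.8 to 49.0 in WT and 58.8 to 79.4 in LRP1 eKO, whereas that of 6 mesothelial markers was 2238 to 2689 and 2911 to 3223. Each of the 6 mesothelial markers was above each of the 10 endothelial markers, as deposited and after division by exonic length, and 5 of the 6 after multiplication by it. The name liver ECs is therefore used here only as the study's name for the cells. Lrp1 fell to 6.74% of WT in these libraries, and the cells that lost it were not identified. WT 4 stood apart, being farthest from the median of its group for 61.7% of the 11391 genes tested, and LRP1 eKO 2 was farthest in its group for 37.2%. Where leaving out WT 4 or LRP1 eKO 2 moved a value of the imprinted growth genes by over 1.5 times or changed its call, both values are given.

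Differences were tested on log2(signal + 1) with limma and Benjamini-Hochberg adjustment over 11391 genes, those that reached a signal of 1 in 4 or more of the 8 libraries. On this scale the change of a weakly expressed gene is understated. Of the 10 imprinted growth genes, 9 passed this filter, each with a signal of at least 1 in all 8 libraries, and Phlda2 did not. Mest, Igf2 and Dlk1 were lower in LRP1 eKO, Igf2r was higher, and the other 5 genes tested did not pass an adjusted p of 0.05. At this threshold 22.2% of all genes tested were lower and 19.0% were higher, against 3 and 1 of the 9 imprinted growth genes. The median log2 fold change of these 9 genes was -0.12, and that of all genes tested was -0.01. A 2-fold change together with the adjusted p was reached by Mest alone among the 9, in a comparison where 0.790% of genes passed both thresholds downwards and 0.869% upwards. The ranges of the groups did not overlap for Mest, Igf2 and Dlk1, with all LRP1 eKO libraries below all WT libraries, as for 22.5% of genes tested, nor for Igf2r, with all LRP1 eKO libraries above, as for 20.0%. For each of these 4 genes the exact two-sided permutation test gave p = 0.029, and no smaller p can come from 4 libraries against 4. By the allele that is expressed, the 3 lower genes were among the 6 paternal genes tested and the higher gene was among the 3 maternal genes tested. Since these are bulk libraries, fewer cells of a type and less RNA per cell cannot be told apart.

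**Figure D1:**
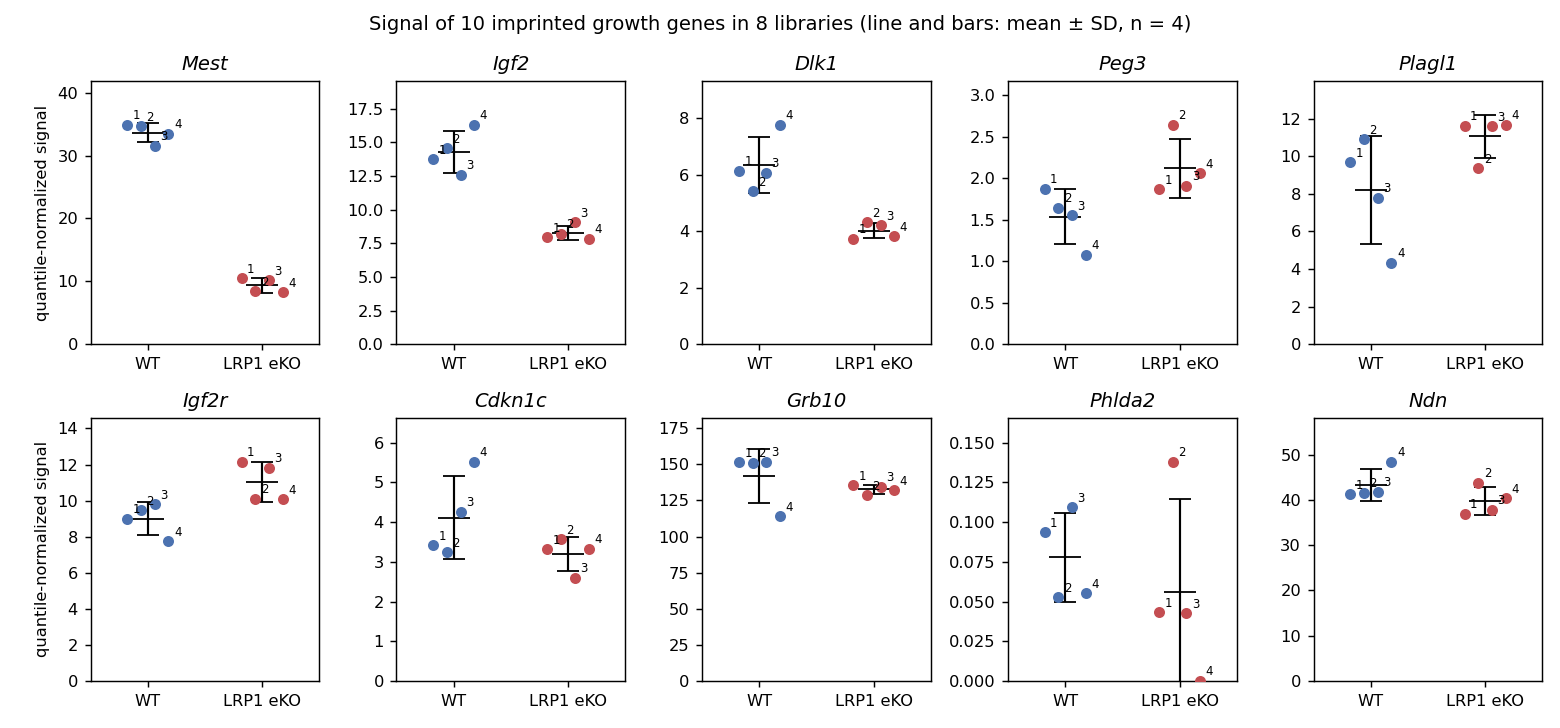
Quantile-normalized signal (vertical axis, from 0, 1 scale per gene) of the 10 imprinted growth genes in 4 WT (blue) and 4 LRP1 eKO (red) libraries, numbered by replicate, with the mean ± SD. Mest, Igf2 and Dlk1 lie lower in every LRP1 eKO library than in any WT library and Igf2r lies higher, while WT 4 is the lowest point for Plagl1 and Grb10 and the highest for Cdkn1c and Ndn.

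Among the growth-promoting genes of the paternal allele, Mest differed most. Mest, also called Peg1, encodes a hydrolase-like protein of the endoplasmic reticulum that is abundant in fetal mesoderm and in expanding fat tissue. Its signal was 34.9, 34.7, 31.6 and 33.5 in WT 1 to 4 and 10.5, 8.44, 10.2 and 8.29 in LRP1 eKO 1 to 4. The 4 WT libraries lay close together, and the highest LRP1 eKO library was far below the lowest of them. The mean fell from 33.7 ± 1.53 (SD, n = 4) to 9.35 ± 1.15 (SD, n = 4), which is 27.8% of WT. The log2 fold change was -1.75 (SE 0.078, limma adjusted p = 3.7e-07), rank 15 among all decreases. It stayed between -1.80 and -1.70 when any library was left out. Copg2, which overlaps Mest on the other strand, encodes a coatomer subunit and had 16.6 in WT and 16.1 in LRP1 eKO (log2 fold change -0.05, limma adjusted p = 0.69).

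Igf2 encodes insulin-like growth factor II, a secreted growth factor of the fetus that signals through the IGF1 receptor and the insulin receptor. The Igf2 signal was 13.7, 14.5, 12.6 and 16.3 in WT 1 to 4 and 7.95, 8.21, 9.04 and 7.84 in LRP1 eKO 1 to 4. All LRP1 eKO libraries were below all WT libraries, and WT 4 was highest. The mean fell from 14.3 ± 1.56 (SD, n = 4) to 8.26 ± 0.541 (SD, n = 4), 57.8% of WT, with a log2 fold change of -0.72 (SE 0.078, limma adjusted p = 9.8e-05). With any library left out it was between -0.77 and -0.66.

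Dlk1 encodes a transmembrane relative of the Notch ligands that is found on preadipocytes, on fetal liver cells and on other progenitors. The Dlk1 signal was 6.14, 5.40, 6.07 and 7.76 in WT 1 to 4 and 3.74, 4.31, 4.20 and 3.83 in LRP1 eKO 1 to 4. The groups did not overlap, and WT 4 was again highest. The mean fell from 6.34 ± 1.00 (SD, n = 4) to 4.02 ± 0.281 (SD, n = 4), 63.4% of WT, with a log2 fold change of -0.54 (SE 0.093, limma adjusted p = 0.0016). With any library left out it was between -0.60 and -0.45.

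Summed signals of several marker lists were also lower in LRP1 eKO, while the mesothelial and pan-endothelial sums given above were higher. Among all genes tested, 22.2% were lower. The summed signal of 8 skeletal muscle and satellite cell markers was 29.8 to 49.5 in WT, highest in WT 4, and 5.32 to 6.89 in LRP1 eKO. Ckm among them was listed at 0 in 1 library of each group. The 4 that were tested were lower, but only 2 of these had a signal of at least 1 in all 8 libraries. Tnnt3, at 0.767 to 1.14 in LRP1 eKO, and Myog, at 0.426 to 0.505, passed the filter through WT, which favours a lower value in LRP1 eKO. The summed signal of 8 hepatocyte markers was 1491 to 1543 in WT and 614 to 900 in LRP1 eKO, with 6 of 6 tested lower. Most of this sum was Trf, with means of 1387 in WT and 733 in LRP1 eKO, while Alb had means of 20.8 and 6.15. Of the stellate cell and fibroblast markers, Pdgfra fell to 66.0% of WT (log2 fold change -0.58) and Lum to 60.1% (-0.69), both without overlap of the groups, while the other 5 tested did not pass. The summed signal of 15 proliferation genes was 375 to 391 in WT and 210.3 to 242 in LRP1 eKO, with 15 of 15 lower. That of 6 adipose and preadipocyte markers was 216 to 252 in WT and 86.0 to 135 in LRP1 eKO, with 2 of 3 tested lower. Most of this sum was Fabp4, with means of 193 in WT and 93.8 in LRP1 eKO. The other lower marker was Pdgfra, already counted with the stellate cell and fibroblast markers. Pparg did not pass (log2 fold change -0.05, limma adjusted p = 0.66), and Adipoq, Plin1 and Cfd were listed at 0 in 3 or 4 libraries. No hepatocyte, proliferation or endothelial marker was at 0 in any library. The part of these lists in the lower Mest, Igf2 and Dlk1 was not tested.

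**Figure D2:**
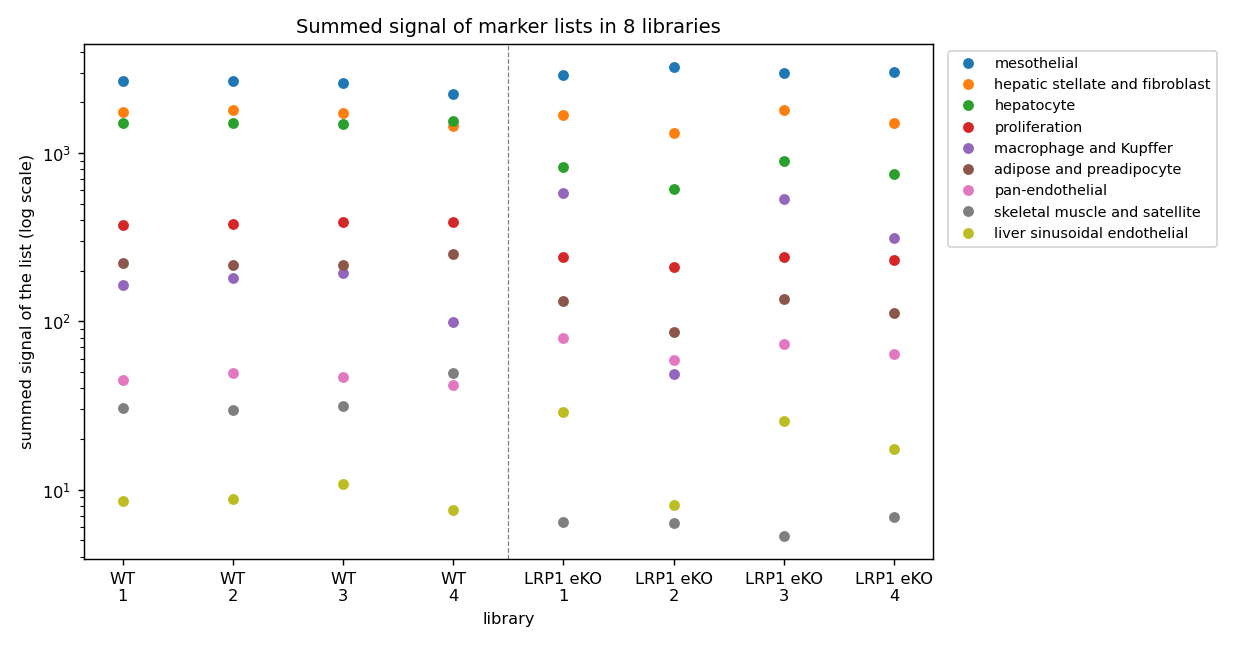
Summed quantile-normalized signal (vertical axis, log scale) of 9 gene lists in each of the 8 libraries (horizontal axis), 1 point per list and library. Hepatocyte, proliferation, adipose and skeletal muscle lists lie lower in all 4 LRP1 eKO libraries, mesothelial and pan-endothelial lists lie higher, and the macrophage list ranges from 48.5 in LRP1 eKO 2 to 576 in LRP1 eKO 1.

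Peg3, a zinc finger gene of the paternal allele with a part in growth and maternal behaviour, was the fourth growth-promoting gene. The Peg3 signal was 1.87, 1.64, 1.55 and 1.08 in WT 1 to 4 and 1.87, 2.64, 1.91 and 2.06 in LRP1 eKO 1 to 4. WT 1 lay between the LRP1 eKO libraries and WT 4 was lowest, so the groups overlapped slightly. The means were 1.54 ± 0.334 (SD, n = 4) and 2.12 ± 0.357 (SD, n = 4), with a log2 fold change of 0.30 (95% interval 0.05 to 0.55, limma adjusted p = 0.054). Its value was thus opposite in sign to those of Mest, Igf2 and Dlk1. The value was 0.37 (limma adjusted p = 0.036) without WT 1, 0.21 (limma adjusted p = 0.10) without WT 4, 0.23 (limma adjusted p = 0.12) without LRP1 eKO 2, and 0.13 (limma adjusted p = 0.15) without WT 4 and LRP1 eKO 2.

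Plagl1, also called Zac1, encodes a zinc finger transcription factor that acts on growth and on other imprinted genes and is expressed from the paternal allele. The Plagl1 signal was 9.69, 10.9, 7.78 and 4.34 in WT 1 to 4 and 11.6, 9.35, 11.6 and 11.7 in LRP1 eKO 1 to 4. The WT libraries were widely spread, WT 4 was lowest and LRP1 eKO 2 lay within the WT range. The log2 fold change was 0.45 (95% interval -0.02 to 0.92, limma adjusted p = 0.12). It was 0.28 (limma adjusted p = 0.046) without WT 4 and LRP1 eKO 2, 0.21 (limma adjusted p = 0.16) without WT 4 alone, 0.52 (limma adjusted p = 0.10) without LRP1 eKO 2 alone, and 0.60 (limma adjusted p = 0.047) without WT 2.

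Igf2r led the growth-restraining genes of the maternal allele. It encodes the cation-independent mannose 6-phosphate receptor, which takes up IGF2 for breakdown in lysosomes and sorts lysosomal enzymes. The Igf2r signal was 8.99, 9.47, 9.81 and 7.74 in WT 1 to 4 and 12.2, 10.1, 11.8 and 10.1 in LRP1 eKO 1 to 4. Every LRP1 eKO library was above every WT library, but LRP1 eKO 2 and 4 exceeded WT 3 only by a small margin. The mean rose from 9.003 ± 0.907 (SD, n = 4) to 11.0 ± 1.10 (SD, n = 4), 1.23 times WT, with a log2 fold change of 0.27 (SE 0.085, limma adjusted p = 0.031). The call rested on single libraries. The limma adjusted p was 0.060 without WT 1, 0.052 without WT 4, 0.083 without LRP1 eKO 1 and 0.083 without LRP1 eKO 3. It was 0.025 without WT 4 and LRP1 eKO 2 together, with a log2 fold change of 0.24. Igf2r was highest in LRP1 eKO 1 and 3, where the summed signal of 10 macrophage and Kupffer cell markers was also highest, at 576 and 531, against 99.7 to 194 in WT, 48.5 in LRP1 eKO 2 and 315 in LRP1 eKO 4. Among these markers Clec4f was listed at 0 in all 4 WT libraries and Timd4 in 7 of 8 libraries. The part of macrophage transcripts in the Igf2r difference was not tested.

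Cdkn1c encodes the CDK inhibitor p57Kip2, which holds cells out of the cycle. The Cdkn1c signal was 3.42, 3.24, 4.26 and 5.53 in WT 1 to 4 and 3.31, 3.57, 2.60 and 3.33 in LRP1 eKO 1 to 4. The groups overlapped, and WT 4 was highest. The log2 fold change was -0.27 (95% interval -0.57 to 0.03, limma adjusted p = 0.14). It was -0.14 (limma adjusted p = 0.30) without WT 4 and -0.18 (limma adjusted p = 0.18) without WT 4 and LRP1 eKO 2. Grb10, an adaptor that binds the insulin and IGF1 receptors and dampens their signal, had 152, 151, 152 and 114 in WT 1 to 4 and 136, 129, 134 and 132 in LRP1 eKO 1 to 4. All LRP1 eKO libraries were below WT 1 to 3 and above WT 4. The log2 fold change was -0.09 (95% interval -0.28 to 0.10, limma adjusted p = 0.43) with all libraries and -0.19 (limma adjusted p = 0.0014) without WT 4. With libraries weighted by their quality the Grb10 value was -0.17 (limma adjusted p = 0.0065). Phlda2, which limits growth of the placenta, was at or near 0, with signals of 0.05 to 0.11 in WT and 0 to 0.14 in LRP1 eKO, and was not tested.

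Ndn encodes necdin, a MAGE family protein of neurons and progenitors that restrains proliferation in cells and is expressed from the paternal allele. The Ndn signal was 41.3, 41.6, 41.8 and 48.5 in WT 1 to 4 and 37.0, 43.8, 37.8 and 40.4 in LRP1 eKO 1 to 4. WT 1 to 3 agreed closely, WT 4 was highest, and LRP1 eKO 2 lay above WT 1 to 3. The log2 fold change was -0.12 (95% interval -0.27 to 0.03, limma adjusted p = 0.19). It was -0.07 (limma adjusted p = 0.38) without WT 4.

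**Figure D3:**
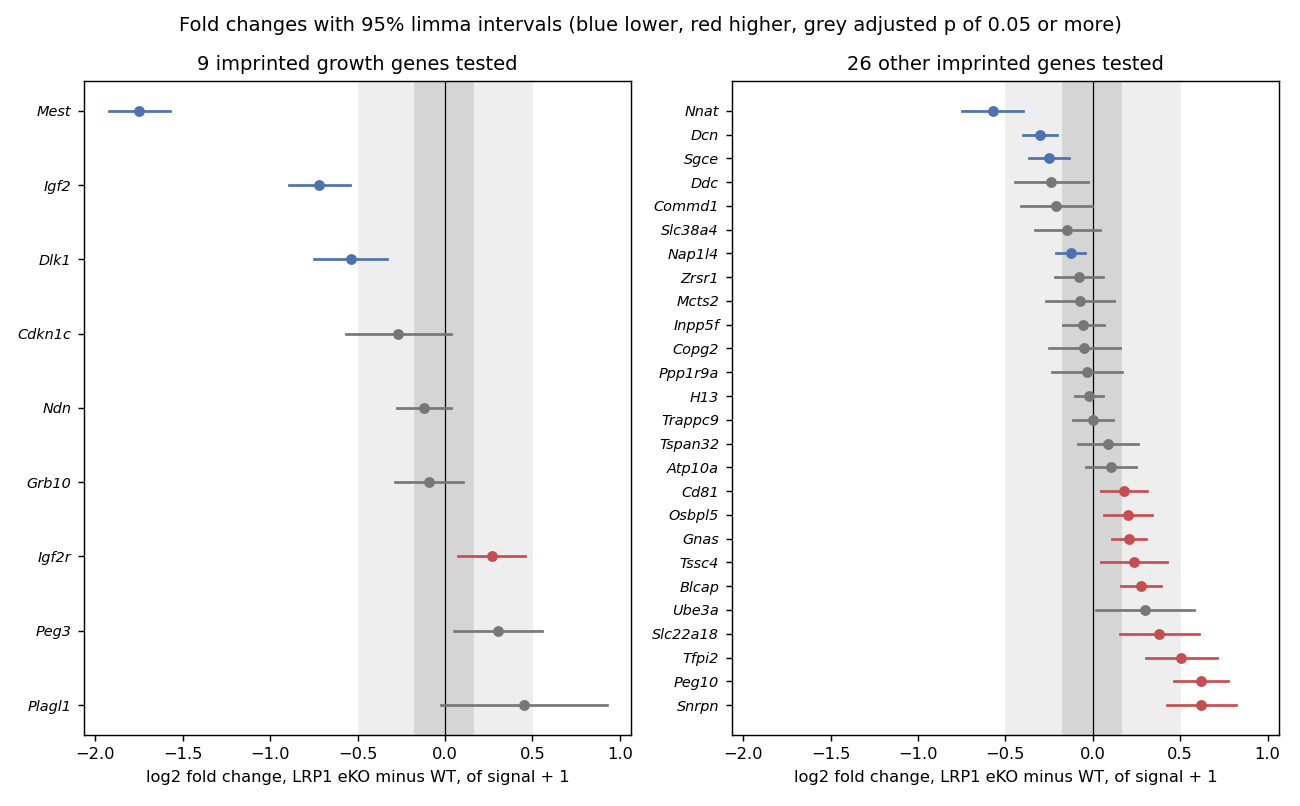
Log2 fold changes of signal + 1, LRP1 eKO minus WT (horizontal axis), of the 9 imprinted growth genes and the 26 other imprinted genes tested, with 95% limma intervals; the dark and light bands hold the middle 50% and 90% of all 11391 genes tested. Mest at -1.75, Igf2 at -0.72 and Dlk1 at -0.54 lie below the light band, and so does Nnat at -0.57 among the other imprinted genes. Snrpn at 0.62, Peg10 at 0.62 and Tfpi2 at 0.51 among them lie above it.

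WT 4 set apart several of these genes at once. Among the 9 genes tested, WT 4 was the lowest WT library for Igf2r, Peg3, Plagl1 and Grb10 and the highest for Igf2, Dlk1, Cdkn1c and Ndn. Over the 8 libraries, deviations from the group means had a Pearson r over 0.5 for 10 of 36 gene pairs and under -0.5 for 12. Plagl1 and Grb10 varied together most closely (r = 0.92), and Dlk1 and Plagl1 most oppositely (r = -0.93). Without WT 4 and LRP1 eKO 2, r of Plagl1 and Grb10 was -0.17 over 6 libraries, r of Dlk1 and Plagl1 was -0.56, r among Igf2, Dlk1, Cdkn1c and Ndn ran from -0.99 to 0.25 in place of 0.17 to 0.76, and r changed sign for 9 of those 22 pairs. Ndn and Igf2r kept opposite deviations, with r = -0.91 over 8 and -0.85 over 6 libraries. These values describe libraries that share a normalization, and they carry no test.

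**Figure D4:**
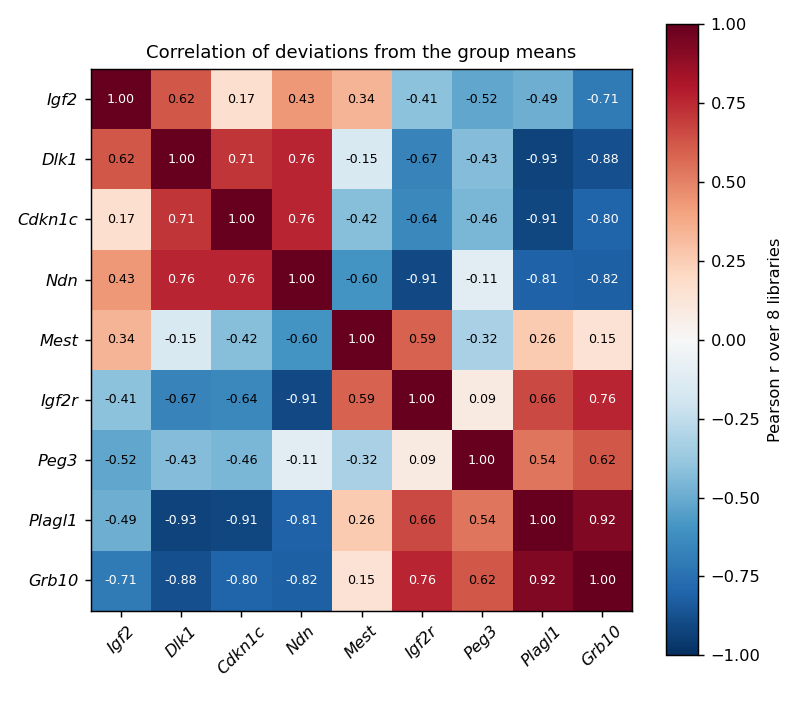
Pearson r between each pair of the 9 imprinted growth genes tested, over the deviations of 8 libraries from their group means (colour, from -1 to 1, with each value written in its cell). Igf2, Dlk1, Cdkn1c and Ndn have r from 0.17 to 0.76 with each other over all 8 libraries (from -0.99 to 0.25 without WT 4 and LRP1 eKO 2), and Plagl1 and Grb10 have r from -0.93 to -0.49 with these 4 genes.

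By the same measure, the genes most like each of the 4 genes past the test were Pcolce (r = 0.99), Mfge8 (r = 0.97) and Pcbp2 (r = 0.96) for Mest. They were Fam63a (r = 0.97), Sox12 (r = 0.96) and Sars2 (r = 0.95) for Igf2. For Dlk1 they were Hint3, Nanp and Myl6b, each with r between 0.98 and 0.99. For Igf2r they were Sort1, D030025P21Rik and Gtf3c3, each with r of at least 0.99. Sort1, which like Igf2r encodes a sorting receptor, differed the other way between genotypes (log2 fold change -0.27, limma adjusted p = 0.045), and only deviations within groups enter this likeness. All of these are picked from 11391 genes on 8 libraries.

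The genes around IGF2 did not move one way. Of 15 IGF axis genes tested beside Igf2 and Igf2r, 5 were lower, 7 were higher and 3 did not pass. The shares over all genes tested were 22.2% lower and 19.0% higher. The lower genes were all IGF binding proteins, which hold IGFs in body fluids, but Igfbp3 was higher (log2 fold change 0.20, limma adjusted p = 0.0095). Among the higher genes, the call held in 1 of 8 fits that left out a library for Igf1, and in 3 for Igf1r and Pappa. Igfbp6, which prefers IGF2 to IGF1, fell from 653 ± 20.6 to 348 ± 31.6 (SD, n = 4 each; log2 fold change -0.91, limma adjusted p = 6.8e-06). Igfbp1 had a log2 fold change of -1.46, Igfbp4 of -1.02 and Igfbp2 of -0.57. All 6 hepatocyte markers tested were lower too, with log2 fold changes from -2.06 for Serpina1a to -0.93 for Trf. The part of hepatocyte transcripts in the lower IGF binding proteins was not tested. Of the higher genes, Igf2bp3, which encodes a protein that binds Igf2 mRNA, went from 1.15 ± 0.105 to 1.83 ± 0.129 (SD, n = 4 each; log2 fold change 0.40, limma adjusted p = 0.0011). Of 15 mannose 6-phosphate sorting genes tested, the pathway that Igf2r serves, 4 were higher and 0 were lower at a limma adjusted p of 0.05, and 11 did not pass. The lysosomal proteases Ctsd (log2 fold change 0.70) and Ctsb (0.58), the hydrolase subunit Hexa (0.22) and Gnptab (0.32), which makes the mannose 6-phosphate tag, were the higher genes. Ctsd, Ctsb and Hexa were highest in LRP1 eKO 1 and 3. Their lowest LRP1 eKO library was LRP1 eKO 2, where they were still above every WT library. The macrophage marker sum was also highest in LRP1 eKO 1 and 3 and lowest in LRP1 eKO 2, and its part in these differences was not tested. Of all 11391 genes, 19.0% were higher. At an unadjusted p under 0.05, 8 of these sorting genes had a value above 0 and 1 had a value below 0, against 23.9% and 26.7% of all genes tested. This looser count was made for this list alone, so it cannot be compared with the other lists. The list was also chosen with earlier results of these data known, so the count is no test of the pathway.

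Other genes listed as imprinted gave a background for the set. Whether each is imprinted in these cells was not measured. Of 47 listed genes, 46 were in the table and 26 were tested. Of these 26, 9 were higher and 4 were lower, against 19.0% and 22.2% of all genes tested. The other 13 did not pass, and none of the 26 passed the 2-fold threshold. Their median log2 fold change was -0.01, as over all genes tested. Zfp264 was not analysed here, and Calcr, Usp29, Magel2, Kcnk9, Slc22a3 and Klf14 were listed at 0 in all libraries. Among the paternally expressed genes, Peg10, derived from a retrotransposon, rose from 1.55 ± 0.157 to 2.91 ± 0.188 (SD, n = 4 each; log2 fold change 0.62, limma adjusted p = 0.00011). Snrpn, a splicing factor gene, rose from 4.45 ± 0.434 to 7.39 ± 0.907 (SD, n = 4 each; log2 fold change 0.62, limma adjusted p = 0.00055). Nnat, which encodes neuronatin of the endoplasmic reticulum, fell from 11.2 ± 1.35 to 7.20 ± 0.372 (SD, n = 4 each; log2 fold change -0.57, limma adjusted p = 0.00044). These paternal genes thus lay on both sides of 0. Dcn, for the matrix proteoglycan decorin, had a log2 fold change of -0.30 and Tfpi2, for a protease inhibitor, of 0.51.

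Neighbours within 1 Mb of the set that are listed as imprinted were not lower as a whole. Whether they are imprinted in these cells was not measured. Near Igf2, Ins2 at a distance of 11.8 kb was not tested, with means of 0.02 in WT and LRP1 eKO. In the region shared by Igf2, Cdkn1c and Phlda2, Cd81 (log2 fold change 0.18), Tssc4 (0.24), Slc22a18 (0.38) and Osbpl5 (0.20) were higher, Nap1l4 (-0.13) was lower and Tspan32 (0.09) did not pass. With 1 library left out, the call held in 2 of 8 fits for Cd81 and Tssc4, 4 for Nap1l4, 5 for Osbpl5 and all 8 for Slc22a18. Slc22a18, 2.21 kb from Phlda2, went from 1.02 to 1.64 while Phlda2 stayed near 0 in all libraries. Near Dlk1, Rtl1 and Dio3 did not reach the filter, with Dio3 at 1.10 in WT and 0.675 in LRP1 eKO. Near Grb10, Ddc went from 17.4 to 14.6 (log2 fold change -0.24, limma adjusted p = 0.066). Near Ndn, Magel2 was listed at 0 and Mkrn3 and Peg12 were below the filter, and near Peg3 so was Zim1.

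Paralogs of the set that are not imprinted also moved both ways. Of 13 listed, 10 were tested, with 3 lower and 2 higher, against 22.2% and 19.0% of all genes tested. Cdkn1b, the p27Kip1 relative of Cdkn1c, fell from 13.2 ± 0.269 to 9.74 ± 0.678 (SD, n = 4 each; log2 fold change -0.40, limma adjusted p = 0.00045). Cdkn1a, the p21 relative, rose from 223 ± 16.7 to 277 ± 10.3 (SD, n = 4 each; log2 fold change 0.31, limma adjusted p = 0.0022). Maged1, a relative of Ndn, had a log2 fold change of -0.34 and Phlda1 one of -0.29. Igf1, the relative of Igf2, had means of 3.00 ± 0.458 and 6.65 ± 3.04 (SD, n = 4 each; log2 fold change 0.83, limma adjusted p = 0.038), with groups that overlapped. In LRP1 eKO 1 to 4 it was 9.08, 2.64, 8.95 and 5.94, the same order as the macrophage marker sum of 576, 48.5, 531 and 315, whose part in it was not tested. The call for Igf1 held in 1 of the 8 fits that left out a library. Plag1, Dlk2 and Grb7 were below the filter. Plagl2 (0.12), M6pr (-0.05), Grb14 (0.08), Phlda3 (-0.02) and Maged2 (0.00), given as log2 fold changes, did not pass.

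Genes known for high expression in fetal tissues that are not imprinted were set beside the imprinted growth genes. Of 13 tested, 6 were lower and 5 were higher, against 22.2% and 19.0% of all genes tested, and 2 did not pass. Igf2bp1, Igf2bp2 and Igf2bp3 among the higher genes were also counted with the IGF axis genes. Gpc3, a proteoglycan that restrains growth, fell from 128 ± 5.15 to 68.9 ± 6.75 (SD, n = 4 each; log2 fold change -0.89, limma adjusted p = 1.0e-05). Afp, the fetal serum protein of hepatocytes, had a log2 fold change of -1.51, Mdk, a heparin-binding growth factor, one of -1.14 and Mycn one of -0.45. Hmga2, a chromatin protein of growing tissues, rose from 27.0 ± 2.66 to 42.7 ± 2.87 (SD, n = 4 each; log2 fold change 0.65, limma adjusted p = 0.00017). The decrease of Mest was thus not accompanied by lower signals throughout this list.

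Genes that keep imprints were tested as well. Of 15 tested, 3 were lower and 2 were higher, against 22.2% and 19.0% of all genes tested, and 10 did not pass. Trim28, the corepressor recruited by ZFP57, fell from 82.5 ± 8.35 to 59.5 ± 2.65 (SD, n = 4 each; log2 fold change -0.46, limma adjusted p = 0.00076). Uhrf1 (-0.40) and the methyltransferase gene Dnmt1 (-0.22), which copy methylation at DNA replication, were also lower in log2 fold change. Zfp445 (0.33) and Tet2 (0.25) were higher. With 1 library left out, the call held in 1 of 8 fits for Dnmt1, 2 for Tet2 and 5 for Zfp445, and without WT 4 the log2 fold change of Zfp445 was 0.22 and that of Tet2 0.18 (limma adjusted p = 0.073). Zfp57 itself had means of 33.0 ± 5.27 and 33.2 ± 3.68 (SD, n = 4 each; log2 fold change 0.01, limma adjusted p = 0.93).

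The calls for Mest, Igf2 and Dlk1 held in each of the 8 fits that left out a library, as the plot of these fits shows, whereas that for Igf2r held in 4 of them.

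**Figure D5:**
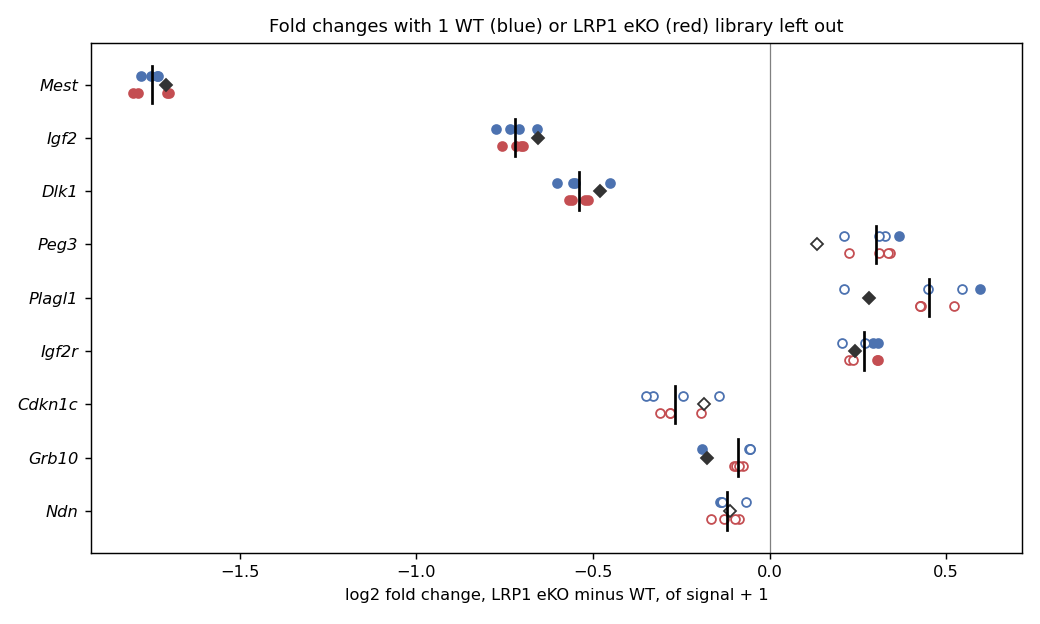
Log2 fold changes of signal + 1, LRP1 eKO minus WT (horizontal axis), of the 9 genes tested, with all libraries (black bar), without 1 WT (blue) or LRP1 eKO (red) library, and without WT 4 and LRP1 eKO 2 (diamond); filled symbols have a limma adjusted p under 0.05. Mest, Igf2 and Dlk1 stay filled throughout, and Igf2r, Peg3, Plagl1 and Grb10 have both filled and open symbols.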

How the data were processed

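mRNA-seq libraries of liver ECs from 4 WT and 4 LRP1 eKO samples were grouped by the sample labels. The authors deposited a quantile-normalized signal for each of 22520 protein-coding genes. The submitters' processing notes name TopHat2, Cufflinks and mm10, while the paper's methods name STAR and featureCounts, and neither describes this table. Quantile normalization removes a global shift between genotypes, and depth is unknown, so precision was judged from the spread between libraries.

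log2(signal + 1) was compared between genotypes by limma 3.58.1, run in R 4.3.3, with a mean-variance trend, genotype as the only term and Benjamini-Hochberg adjustment over the 11391 genes that reached a signal of 1 in 4 or more of 8 libraries. The thresholds were an adjusted p of 0.05 and, where stated, a 2-fold change. This test stands in for the count model of the methods, since the table holds no counts. An exact two-sided permutation test over 70 splits was added for each gene. The calculation was tested on simulated data.

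The imprinted growth genes and all lists were chosen with earlier results of these data known. Named were all 10 imprinted growth genes, all paralogs, Lrp1, up to 5 genes with the smallest adjusted p of each other list, and the 3 genes most alike each gene that passed. Neighbouring genes, Zfp57, Igfbp3, Igf1r, Pappa, Igf2bp1, Igf2bp2, Trf and Pparg stand outside this rule and were chosen after their values were seen. Lists of stellate, sinusoidal endothelial and erythroid markers were also summed. Those of stellate cells and fibroblasts, a sum made mostly of collagen transcripts, lay between 1322 and 1790 over both groups. Those of sinusoidal endothelial cells lay between 7.55 and 10.9 in WT and 8.09 and 29.1 in LRP1 eKO. Those of erythroid cells lay between 24.8 and 29.3 in WT and 14.7 and 24.8 in LRP1 eKO. The erythroid sum was almost wholly Alas2, with means of 26.6 in WT and 20.3 in LRP1 eKO. Positions came from GENCODE M21, which held 21740 of the identifiers, and promoter windows from RefSeq on GRCm38.p6. Figures were drawn with matplotlib 3.10.9.

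As alternatives the fit was repeated with a pseudocount of 0.1 or 5, without the filter, with genes of a mean signal of at least 5, without the variance trend, with array weights, after centring on a mean trimmed by 30% per end, with the replicate number as a block, and without each library in turn or WT 4 and LRP1 eKO 2 together. A ratio of arithmetic means was also computed.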

Additional observations from a re-analysis of the deposited data

Results flagged for a closer look

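A library was noted where its gap to the nearest of its group, divided by the spread from lowest to highest of the 4 libraries, exceeded the Dixon 95% critical value, which chance does in about 1 of 20 groups. This held for 11 of 96 groups of 4 libraries, against 4.8 by chance, and 6 of the 11 were WT 4. WT 4 was lowest for Grb10 (a gap of 0.984 of that spread), Dnmt1 (0.949), Igfbp4 (0.861) and Tet2 (0.851), and highest for Ndn (0.923) and Mdk (0.907). Grb10 was 114 in WT 4 and 151 to 152 in WT 1 to 3, and Ndn was 48.5 against 41.3 to 41.8. LRP1 eKO 2 was lowest for Plagl1 (0.969), at 9.35 against 11.6 to 11.7, and highest for Mycn (0.923) and Nnat (0.839). LRP1 eKO 3 was lowest for Afp (0.858), and WT 3 was highest for Plag1 (0.873), a relative of Plagl1 with signals below 1. Of the imprinted growth genes, these values concern Grb10, Ndn and Plagl1. Grb10 passed the test without WT 4. Plagl1 did not pass without LRP1 eKO 2 alone (limma adjusted p = 0.10) and passed without LRP1 eKO 2 and WT 4 together.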

How the results depend on the processing

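Mest, Igf2 and Dlk1 were lower at an adjusted p under 0.05 (limma) in all 17 alternative fits. The number of imprinted growth genes that were higher was 1, and it was 0 with no filter on low signals, 2 without WT 4 and LRP1 eKO 2 (Igf2r and Plagl1), and 0 to 2 when 1 library was left out. It was 0 without WT 4, LRP1 eKO 1 or LRP1 eKO 3, and 2 without WT 2, where Plagl1 passed (adjusted p = 0.047), while without WT 1 Peg3 passed in place of Igf2r. With no filter the limma adjusted p of Igf2r was 0.091, where 22520 genes were tested in place of 11391. The number that were lower was 4 without WT 4, with array weights, and without both libraries, each time by Grb10. Of 151 refitted fold changes of single genes, 140 kept direction and side of the threshold, 6 passed it newly, 5 no longer passed and 0 turned direction. The 9 ratios of arithmetic means, which have no test, had the same sign as the fitted values. The 26 other imprinted genes gave 6 to 10 higher and 3 to 6 lower. Replicate numbers did not pair the libraries, since same-numbered libraries had deviations with r from -0.13 to 0.18 over the genes tested. With the replicate block, 3 imprinted growth genes were lower and 1 was higher, and 2210 of all genes were lower and 1975 higher. Peg3 and Cdkn1c had no value under a mean signal of at least 5. Without depth, counting error at the low signals of Peg3, Cdkn1c and Phlda2 cannot be given.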
